A study of Mus musculus with 20 samples.

Results

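Regulatory T cells (Tregs) given interleukin-2 (IL-2) for 4 hr were compared with Tregs that received no cytokine. The groups were taken from the sample labels alone: 3 libraries labelled Treg with IL-2 at 4 hr and 3 labelled Treg at 0 hr, together 6 of the 20 libraries of the series. Tregs came from spleen and lymph nodes of B6-Foxp3EGFP mice, in which GFP reports the Foxp3 gene, and the records give the strain as C57BL/6N. They were enriched as CD4+ T cells, sorted for GFP and, in the IL-2 group, stimulated ex vivo with 200 nM IL-2. The age of the mice and the number of mice behind a library were not given in the sources used here. Of the other 14 libraries, 3 came from Tregs given IL-2 for 1.5 hr, 6 from Tregs given the partial agonist IL-2-REH, and 5 from CD8+ T cells. Cells cultured for 4 hr without cytokine were not analysed here, so 4 hr of culture and 4 hr of IL-2 cannot be told apart in any value below.

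IL-2 binds a receptor made of an alpha chain (CD25, the product of Il2ra), a beta chain and the common gamma chain. The receptor activates the kinases JAK1 and JAK3, which phosphorylate the transcription factor STAT5. STAT5 dimers bind DNA at a pair of half-sites, TTC and GAA, and switch on genes that include the feedback inhibitors Cish and Socs1. Tregs carry much CD25 but make almost no IL-2, and they depend on IL-2 from other T cells to keep up Foxp3, the factor that defines them.

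The deposited reads on genes numbered 39933483 to 51867572 in the unstimulated libraries and 20201392 to 63903764 in the IL-2 4 hr libraries, of which IL-2 4 hr replicate 3 had the fewest. Foxp3 stood at 66.96, 92.8 and 65.2 RPKM (reads per kilobase of exon, scaled to the mapped reads of the library) in unstimulated replicates 1, 2 and 3, against 0.518 in unstimulated CD8+ T cells, which fits the Treg label. The summed RPKM of 15 macrophage, monocyte and dendritic cell markers was 19.0 to 110.8 in the unstimulated and 8.57 to 31.7 in the IL-2 4 hr libraries. That of 12 erythroid markers was 15.3 to 370.7 and 10.3 to 220.7, with replicate 3 the highest in both groups. For 10 neutrophil and mast cell markers it was 4.69, 4.88 and 224.8 in unstimulated replicates 1, 2 and 3. After 4 hr of IL-2 it was 2.98, 5.61 and 86.4, so replicate 3 was again the highest in both groups. None of the marker lists had a member at 0 in all 6 libraries. Same-numbered libraries matched in sex-linked genes. Xist, the RNA of the inactive X chromosome, was at 65.2, 44.6 and 50.2 RPKM in replicate 2 of the unstimulated, IL-2 4 hr and IL-2 1.5 hr groups and at most 0.0449 in the others. Ddx3y, on the Y chromosome, showed the reverse, with at most 0.0119 RPKM in replicate 2 and at least 22.9 in the others. Replicate 2 of these groups thus held female cells and replicates 1 and 3 male cells, so replicate 2 came from other mice. The study lists its Foxp3 reporter mice as female. Nothing in the sources says whether replicates 1 and 3 were separate cell isolations. The p-values measure the spread between these libraries, in which sex goes with the replicate number.

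Unstimulated replicate 1 stood apart from its group. The values compared were log2(RPKM + 1) over genes with a mean of at least 1 RPKM in the 15 Treg libraries. Those of unstimulated replicate 1 correlated with unstimulated replicates 2 and 3 at r = 0.902 and 0.908, and with the IL-2 1.5 hr libraries at 0.957 to 0.971. Unstimulated replicates 2 and 3 correlated at 0.977 with each other and at 0.894 to 0.923 with the IL-2 1.5 hr libraries. IL-2 4 hr replicate 3 also stood apart from its group, at 0.914 and 0.92 with IL-2 4 hr replicates 1 and 2, which correlated at 0.954 with each other. Its correlations with the IL-2 1.5 hr libraries were 0.885 to 0.907, and with the unstimulated ones 0.863 to 0.883. These correlations are across genes, which are not independent, and are given as a description. Counts of calls in gene lists are also given without unstimulated replicate 1.

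STAT5 is the factor that IL-2 activates, so stretches near gene starts that hold the letters it recognises are shown first, for 6 of the genes that rose. These 6 are a selection from the 27 genes called higher that held a match. The search was for TTC and GAA with any 3 bases between them, in the 300 bases from 250 before to 50 after each RefSeq transcript start of GRCm38.p6, the build that is also called mm10. The pattern is its own reverse complement, so a match on one strand is a match on both. Each line gives 30 bases, 5′ to 3′ on the strand of the gene, with every match in capitals.
Cish, chr9:107296653-107296682, plus strand: ccagttTTCCTGGAAagTTCTTGGAAatct
Foxp3, chrX:7580338-7580367, plus strand: tctgttTTCCAAGAAcgggcattagttctg
Icam1, chr9:21015892-21015921, plus strand: cgaggtTTCCCGGAAagtggccccgacagc
Aldh18a1, chr19:40588479-40588508, minus strand: gcgcgaTTCTCAGAAgcgcctgcgccgttg
Txnrd1, chr10:82860262-82860291, plus strand: ttcagaTTCCAGGAAgccctgggtgttgca
Gbp5, chr3:142496876-142496905, plus strand: cgttatTTCTCAGAAccaagcacagataaa
In Cish, 2 matches lay next to each other, the first of them beginning at base 1 of the transcript. Counted from the start of its window, with bases before it negative, the printed match began at -139 in Foxp3, -42 in Icam1, -39 in Aldh18a1, -73 in Txnrd1 and -52 in Gbp5. In Foxp3 and Txnrd1 this start belongs to a transcript that begins further downstream than the counted one, so the match lies inside the counted gene. Aldh18a1, Txnrd1 and Gbp5 each had 1 more match, at -154, -230 and -245, that is not printed. Of the 176 genes called higher after IL-2, 154 (87.5%) had a window in the table, and 27 of these (17.5%) held at least 1 match. For genes with a single start the share was 16 of 118 (13.6%). Over the whole table, 2726 of 32851 windows (8.30%), 2582 of 27025 genes (9.55%) and 1942 of 22862 genes with a single start (8.49%) held one. Among the tested genes with a window, 973 of 11653 (8.35%) held one, or 7.04% of those with a single start, and among those called lower 9 of 112 (8.04%). Only 77.6% of the tested genes and 67.9% of those called lower had a window, too few for a comparison, so these 2 shares are values alone. Socs3 and Lta, which were not called, also held matches. No match was found for Socs1, Socs2, Il2ra, Cdk6 or Lrrc32, which were called higher, and whether each had a window is not given here. A match describes letters and does not show that STAT5 bound there.

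After 4 hr of IL-2, feedback inhibitors (Cish, Socs1), Treg genes (Foxp3, Lrrc32), matrix genes (Lama5, Ecm1) and the Polycomb gene Ezh2 were higher, while early response genes (Fos, Dusp1), the receptor genes Cd4 and Cd5 and Ephx1 were lower. Of 15009 genes tested with edgeR on the read counts, 341 (2.27%) were called at an adjusted p-value under 0.05, 176 of them higher after IL-2 (1.17%) and the rest lower (1.1%). The median log2 fold change was 1.38 for the genes called higher and -1.58 for those called lower, and 340 of the 341 moved the same way in all 3 same-numbered pairs. The 3 values of one group lay entirely above those of the other in 170 of the 176 called higher and in 97.6% of those called lower. Over all tested genes such a gap was found in 2205 (14.7%), 897 higher and 1308 lower. The median log2 fold change of all tested genes was -0.002, and 0.052 without unstimulated replicate 1.

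Among fits that left out 1 of the 6 libraries, calls were most without unstimulated replicate 1 and fewest without unstimulated replicate 3. Without the former, 1374 genes were called (8.87%), 663 higher and 711 lower, and 334 of the 341 were among them. Without unstimulated replicate 2 or 3, 137 and 72 genes were called, and without IL-2 4 hr replicate 1, 2 or 3 there were 219, 145 and 156. With the replicate number as a block, 1038 genes were called (6.92%), 428 higher and 610 lower, among them all 341. Of the 341 genes, 65 were called in every fit that left out 1 of the 6 libraries, 47 of them higher and 18 lower. Counts of list members called below are set beside the share over all tested genes in the same fit. The lists were chosen with earlier results of these data known, so a count above that share is a description and not a test. That share was 2.27% with all libraries and no block, 6.92% with the block and 8.87% without unstimulated replicate 1.

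**Figure D1:**
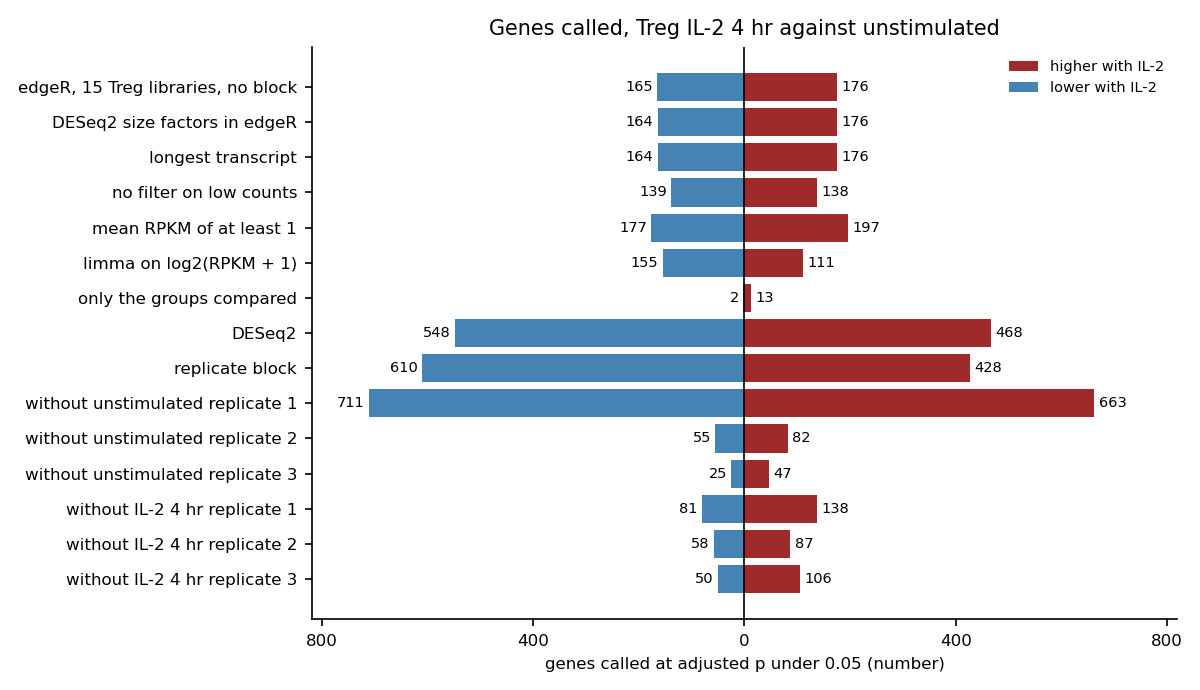
Number of genes called at adjusted p under 0.05 for Treg IL-2 4 hr against unstimulated, higher to the right and lower to the left, for edgeR on all 15 Treg libraries (top bar) and for each alternative. Of the settings drawn, leaving out unstimulated replicate 1 gave the most calls (663 higher and 711 lower), and a fit on the 6 libraries alone gave the fewest (13 and 2).

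Feedback inhibitors of the IL-2 pathway and the alpha chain of its receptor rose. Of 25 STAT5 and IL-2 target genes, 5 were called higher and 0 lower, with a median log2 fold change of 0.63 against -0.002 over all tested genes. The 5 were Cish, Socs1, Socs2, Il2ra and Cdk6. With the block 10 were called higher and 3 lower, without unstimulated replicate 1 there were 7 and 0, and without unstimulated replicate 3 there were 2 in all.

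Cish, an SH2-domain protein that binds the activated receptor and damps STAT5 signalling, lies at chr9:107296659-107302784 in mm10 and has the 2 adjacent matches shown above. Its level was 54.7, 65.5 and 54.0 RPKM in unstimulated replicates 1, 2 and 3 and 138, 224 and 135 after IL-2. All 3 stimulated libraries lay above all 3 unstimulated ones, with unstimulated replicate 1 between the other 2. The log2 fold change was 1.56 ± 0.18 (SE, n = 3 per group, adjusted p = 0.000732, edgeR), and the call held in all 6 fits that left out a library. The transcripts Gm17040 and Gm17041 overlap Cish on the opposite strand, and whether strand was used in counting is not given, so reads where they overlap are uncertain. At 1.5 hr Cish was at 238, 262 and 187 RPKM, a mean of 229 against 165.6 at 4 hr, and the difference between the times missed the threshold also with the block (adjusted p = 0.109).

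Socs1 encodes a protein that blocks JAK kinases directly. It went from 10.3, 25.4 and 15.2 RPKM to 86.1, 102 and 56.3, a log2 fold change of 2.36 ± 0.39 (adjusted p = 0.00691, edgeR). Unstimulated replicate 1 was the lowest of the 6 libraries, and the groups did not overlap. Socs2, which marks growth hormone and cytokine receptors for degradation, went from 6.51, 18.1 and 15.5 to 44.3, 47.2 and 30.2 RPKM, with a log2 fold change of 1.70 ± 0.28 (adjusted p = 0.00675, edgeR). Its lowest library was again unstimulated replicate 1. Socs3 was not called, at 62.1 ± 17.1 RPKM (SD, n = 3) in unstimulated and 62.1 ± 7.64 in stimulated Tregs.

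Il2ra, the alpha chain that gives Tregs their high affinity for IL-2, went from 62.7, 117 and 91.5 to 197, 282 and 101 RPKM. Its log2 fold change was 1.15 ± 0.27 (adjusted p = 0.0407, edgeR). IL-2 4 hr replicate 3 lay below unstimulated replicate 2, so the groups overlapped, and the call held in 2 of the 6 fits that left out a library. Cdk6, a kinase that drives entry into the cell cycle, rose from 6.64 ± 1.39 to 14.0 ± 2.39 RPKM (SD, n = 3, log2 fold change 1.16, adjusted p = 0.029, edgeR). Il7r, the receptor chain for interleukin-7, fell from 56.6, 86.1 and 65.7 to 23.5, 38.7 and 15.6 RPKM with no overlap, a log2 fold change of -1.37 ± 0.28 (adjusted p = 0.0232, edgeR). It was the 1 gene called lower among 18 IL-2 receptor, JAK and STAT genes, in which Il2ra was the 1 called higher.

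STAT5 itself showed how far the unstimulated libraries differed. Stat5a was at 145, 29.8 and 24.2 RPKM in unstimulated replicates 1, 2 and 3 and at 74.4, 110.2 and 95.2 after IL-2, and Stat5b at 142, 54.9 and 43.9 and 103, 132 and 129. For both, unstimulated replicate 1 was the highest of all 6 libraries, while replicates 2 and 3 were the lowest. Neither was called with all libraries (adjusted p = 0.696 and 0.419, edgeR). Without unstimulated replicate 1, both rose, by 1.94 and 1.46 on the log2 scale (adjusted p = 0.000289 and 0.000965, edgeR). Over the 18 genes of the list, calls without that library numbered 6 higher and 3 lower, and with the block 1 and 3, while none was made without unstimulated replicate 2 or 3 or IL-2 4 hr replicate 1.

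Foxp3 and several of its companions among the Treg genes rose. Among 29 tested Treg identity and suppression genes, 5 were called higher and 2 lower, with a median log2 fold change of 0.18. With the block the counts were 6 and 5, and without unstimulated replicate 1 they were 10 and 3, with a median of 0.48. Without unstimulated replicate 3 the list held 1 call, and without IL-2 4 hr replicate 2 it held 2. Besides Il2ra, the genes that rose were Foxp3, Ikzf4, Lrrc32 and Gpr83.

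Foxp3, at chrX:7579676-7595243 in mm10, has 1 of the matches printed above and went from 66.96, 92.8 and 65.2 to 151, 194 and 211 RPKM, a log2 fold change of 1.40 ± 0.25 (adjusted p = 0.011, edgeR). The groups were well apart, with the highest unstimulated library at 92.8 and the lowest stimulated one at 151. The call of Foxp3 was lost in the fit without unstimulated replicate 3, where Ikzf4 was the 1 call of the list. Flicr overlaps Foxp3 on the same strand and Ccdc22 and Gm36995 on the opposite strand, so its reads are uncertain in part. Ikzf4 (Eos), a partner of Foxp3 in gene repression, rose too: its mean was 21.7 ± 1.57 RPKM in unstimulated and 46.7 ± 10.2 in stimulated libraries (SD, n = 3), a log2 fold change of 1.16 ± 0.17 (adjusted p = 0.00347, edgeR). Its call held in all 6 fits that left out a library.

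Lrrc32 encodes GARP, which holds latent TGF-beta on the Treg surface. It stood at 153, 83.4 and 61.8 RPKM before and 208, 349.6 and 229 after IL-2, with a log2 fold change of 1.41 (adjusted p = 0.0344, edgeR) that grew to 1.995 without unstimulated replicate 1. Gpr83, a receptor enriched in Tregs, went the other way in that library: it was at 6.00, 53.4 and 37.5 RPKM before and 115, 168 and 95.6 after IL-2, and the log2 fold change of 2.09 (adjusted p = 0.0397) shrank to 1.62 without it. The call held for both genes in either fit, and the groups did not overlap.

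Not every Treg gene rose. Itgae (CD103), an integrin chain that holds T cells in epithelia, fell from 16.1, 23.1 and 27.9 to 9.99, 4.17 and 4.42 RPKM (log2 fold change -1.76 ± 0.39, adjusted p = 0.0324, edgeR). Lag3, an inhibitory receptor for MHC class II, fell from 7.79, 15.1 and 13.6 to 2.06, 3.504 and 4.58 RPKM (log2 fold change -1.74 ± 0.38, adjusted p = 0.0306, edgeR). Neither group overlapped the other in these genes. Ikzf2 (Helios) was at 68.2 ± 7.37 and 54.2 ± 20.9 RPKM (SD, n = 3) and Ctla4, an inhibitory receptor, at 404 ± 164.8 and 224 ± 112, and neither was called (adjusted p = 0.599 and 0.262, edgeR).

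**Figure D2:**
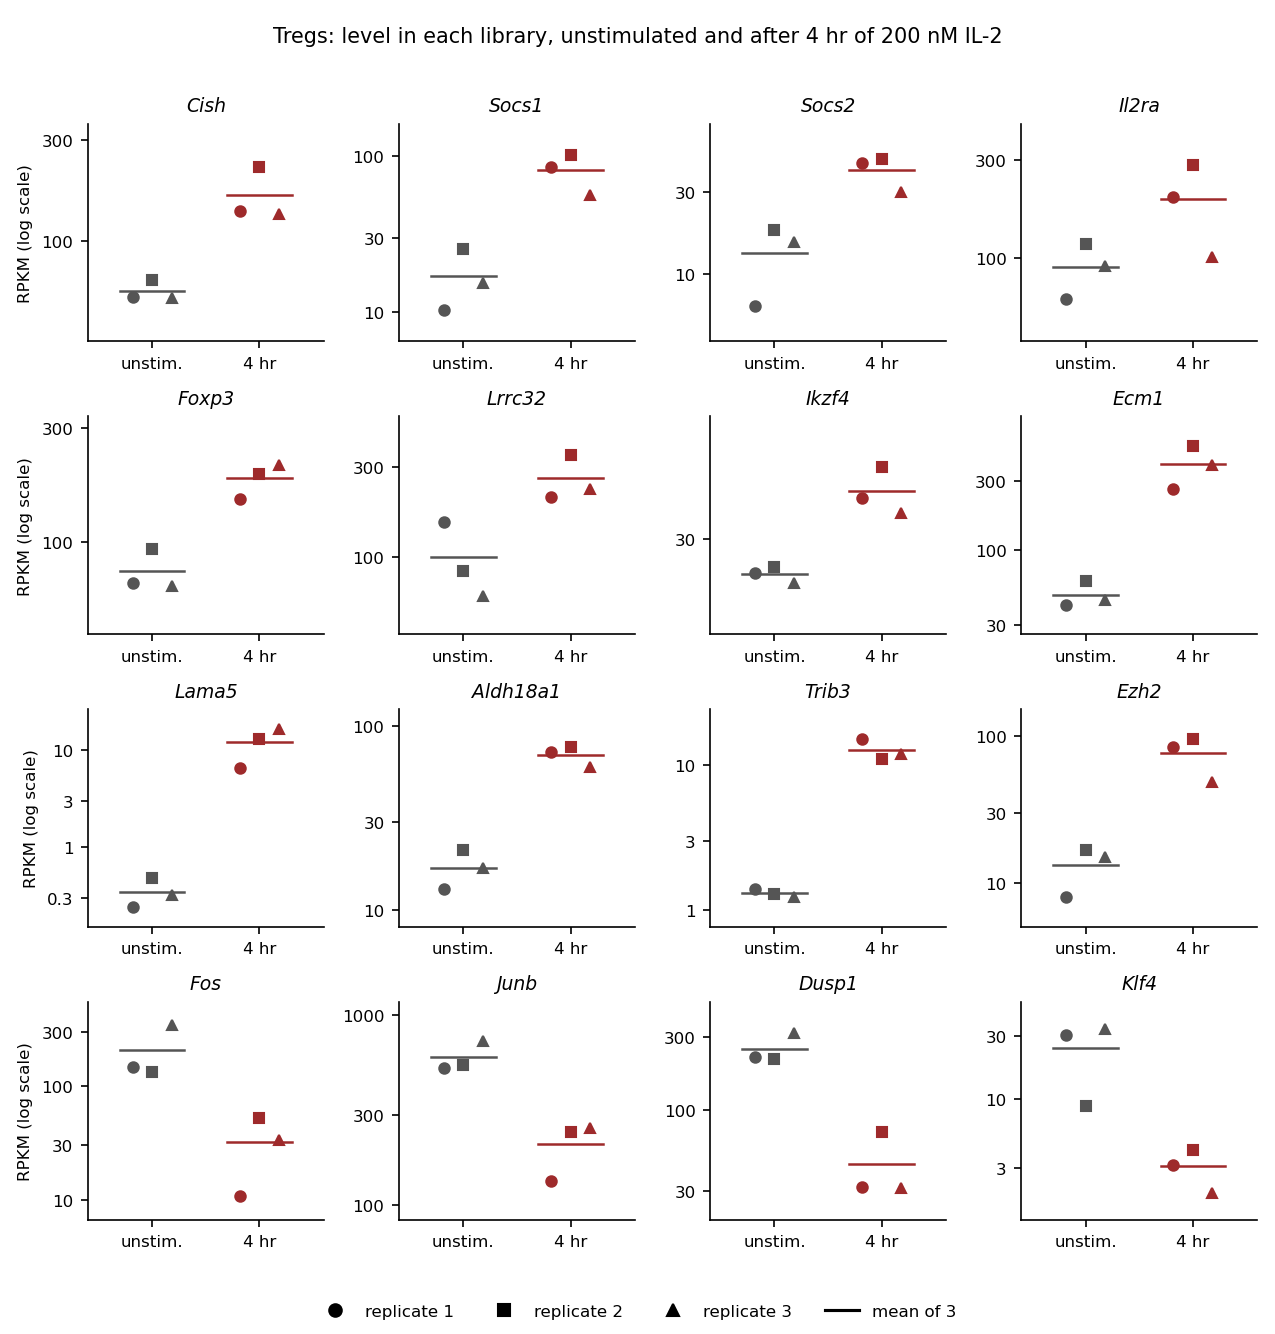
RPKM on a log axis in the 3 unstimulated (grey) and 3 IL-2 4 hr (red) Treg libraries for 16 called genes, with circles, squares and triangles for replicates 1, 2 and 3 and lines at the group means. In 12 genes IL-2 libraries were higher and in 4 (Fos, Junb, Dusp1 and Klf4) lower, and of these genes only Il2ra had groups that overlapped.

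Genes of the matrix and of cell adhesion included some of the largest rises. Of 30 adhesion, matrix and guidance genes, 7 were called higher (Lama5, Ecm1, Podxl, Sema7a, Adam19, Icam1 and Itgb3) and 4 lower (Itgae, Itgal, Ntn1 and Dscam), with a median log2 fold change of -0.16. With the block the counts were 8 and 8, and without unstimulated replicate 1 they were 7 and 8. Over all tested genes 1.17% were called higher and 1.1% lower with all libraries and no block. In either direction together, 6.92% were called with the block and 8.87% without unstimulated replicate 1. In every fit that left out a library, at least 5 of the list were called, and the fewest came without unstimulated replicate 3.

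Ecm1, a secreted extracellular matrix protein with its gene at chr3:95734147-95739876 in mm10, was at 41.3, 60.2 and 44.4 RPKM before and 263, 530.1 and 389.7 after IL-2 (log2 fold change 3.09 ± 0.29, adjusted p = 0.00011, edgeR). It passed through 145, 177 and 173 RPKM at 1.5 hr, between both groups and overlapping neither. Lama5 (chr2:180176373-180225904), a laminin chain of basement membranes, was nearly silent at 0.240, 0.475 and 0.322 RPKM and reached 6.52, 12.9 and 16.5 after IL-2 (log2 fold change 5.23 ± 0.40, adjusted p = 5.47e-05, edgeR). At 1.5 hr Lama5 had reached 2.60, 1.57 and 2.19 RPKM.

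Sema7a, a membrane-bound semaphorin, rose from 0.797 ± 0.0448 to 2.81 ± 0.356 RPKM (SD, n = 3, log2 fold change 1.89, adjusted p = 0.000419, edgeR). Podxl, a sialomucin, stayed low in absolute terms, at 0.0426 ± 0.0112 RPKM before and 0.377 ± 0.0707 after IL-2, with a log2 fold change of 3.19. Adam19, a membrane protease, rose from 8.09, 27.6 and 20.6 to 47.7, 59.3 and 53.6 RPKM. Icam1 and Itgb3, both adhesion molecules, rose by 1.07 and 0.98 on the log2 scale. Itgal, the alpha chain of the leukocyte integrin LFA-1, which binds the Icam1 product, fell from 70.2, 134 and 117 to 31.7, 43.4 and 42.2 RPKM (log2 fold change -1.35, adjusted p = 0.0316, edgeR). Vim, the intermediate filament vimentin, was not on the list but had one of the largest gains in level, from 137 ± 24.8 to 414 ± 65.0 RPKM (SD, n = 3, log2 fold change 1.70, adjusted p = 0.0174, edgeR).

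A group of immediate early genes, which many stimuli switch on within minutes, fell. Of 25, 6 were called lower and 0 higher: Fos, Junb, Dusp1, Dusp2, Zfp36 and Klf4. The median log2 fold change of the list was -0.53 and moved to -0.07 without unstimulated replicate 1, where 8 were called lower and 3 higher. With the block the counts were 8 lower and 1 higher, and without unstimulated replicate 3 or IL-2 4 hr replicate 1 there were 2 calls each.

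Fos, an AP-1 subunit, was at 146, 132 and 341 RPKM in the unstimulated libraries and at 10.7, 52.3 and 33.6 after IL-2, with a log2 fold change of -2.66 ± 0.61 (adjusted p = 0.0367, edgeR). Junb, another AP-1 subunit, was among the most abundant of these genes at 531, 550.4 and 737 RPKM and went down to 134, 243 and 253 (log2 fold change -1.47 ± 0.32, adjusted p = 0.0335, edgeR). Dusp1, a phosphatase that switches off MAP kinases, went from 221, 214 and 315 to 32.1, 72.2 and 31.4 RPKM (log2 fold change -2.45 ± 0.35, adjusted p = 0.00337, edgeR). In each of the 3 genes every stimulated library lay below every unstimulated one, and unstimulated replicate 1 did not stand apart from replicate 2.

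Klf4, a transcription factor linked to T cell quiescence, fell from 30.7, 8.83 and 34.1 to 3.18, 4.12 and 1.94 RPKM, with unstimulated replicate 2 the lowest of its group (log2 fold change -3.01, adjusted p = 0.0066, edgeR). Zfp36 and Zfp36l2 encode proteins that bind AU-rich mRNA and promote its decay. Zfp36 fell from 100.1, 266 and 307 RPKM to 38.7, 92.9 and 31.7, and Zfp36l2 from 90.7, 342 and 237 to 58.2, 70.0 and 30.1, with log2 fold changes of -1.99 and -1.98 (adjusted p = 0.0447 and 0.02, edgeR). Jun was not called, at 158.6 ± 142 and 83.9 ± 28.0 RPKM (SD, n = 3).

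In Crem, Fosl2 and Gadd45b, which belong to the same list, unstimulated replicate 1 alone stood with the stimulated libraries. Crem, a transcription factor of the cAMP pathway, was at 229, 7.01 and 7.34 RPKM in unstimulated replicates 1, 2 and 3 and at 98.7, 114 and 73.1 after IL-2. Fosl2, an AP-1 subunit, was at 101, 3.93 and 9.81 and 43.3, 85.6 and 75.8 RPKM, and Gadd45b, a stress-response gene, at 219, 35.4 and 48.1 and 85.2, 288 and 236. None was called with all libraries (adjusted p = 0.952, 0.68 and 0.455, edgeR). Without unstimulated replicate 1 the 3 genes rose by 3.86, 3.40 and 2.396 on the log2 scale (adjusted p = 1.34e-06, 0.00246 and 0.0135, edgeR).

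Unstimulated replicate 1 took no part in the fit that left it out, so its values can be set beside the calls of that fit. Its position was scored as 0 at the mean of unstimulated replicates 2 and 3 and as 1 at the IL-2 4 hr mean, on normalized log2 counts. Of the 663 genes called higher without it, 460 (69.4%) had this library nearer to the IL-2 4 hr mean, and the median position was 0.849. Of the 711 called lower, 495 (69.6%) did, with a median of 0.715. Among the genes called higher and lower with all libraries, 13 and 31 did, with medians of -0.022 and 0.267, but this library took part in those calls. Tnfrsf18 (GITR), a costimulatory receptor of Tregs, shows the intermediate case at 274, 124 and 93.0 RPKM before and 417, 441 and 402 after IL-2 (adjusted p = 0.0635 with all libraries, 0.000262 without this one and 0.00738 with the block, edgeR). Tnfrsf9 (4-1BB), another such receptor, was at 271, 55.7 and 48.7 and 477, 457 and 385 RPKM (adjusted p = 0.164, 0.00217 and 0.00584).

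**Figure D3:**
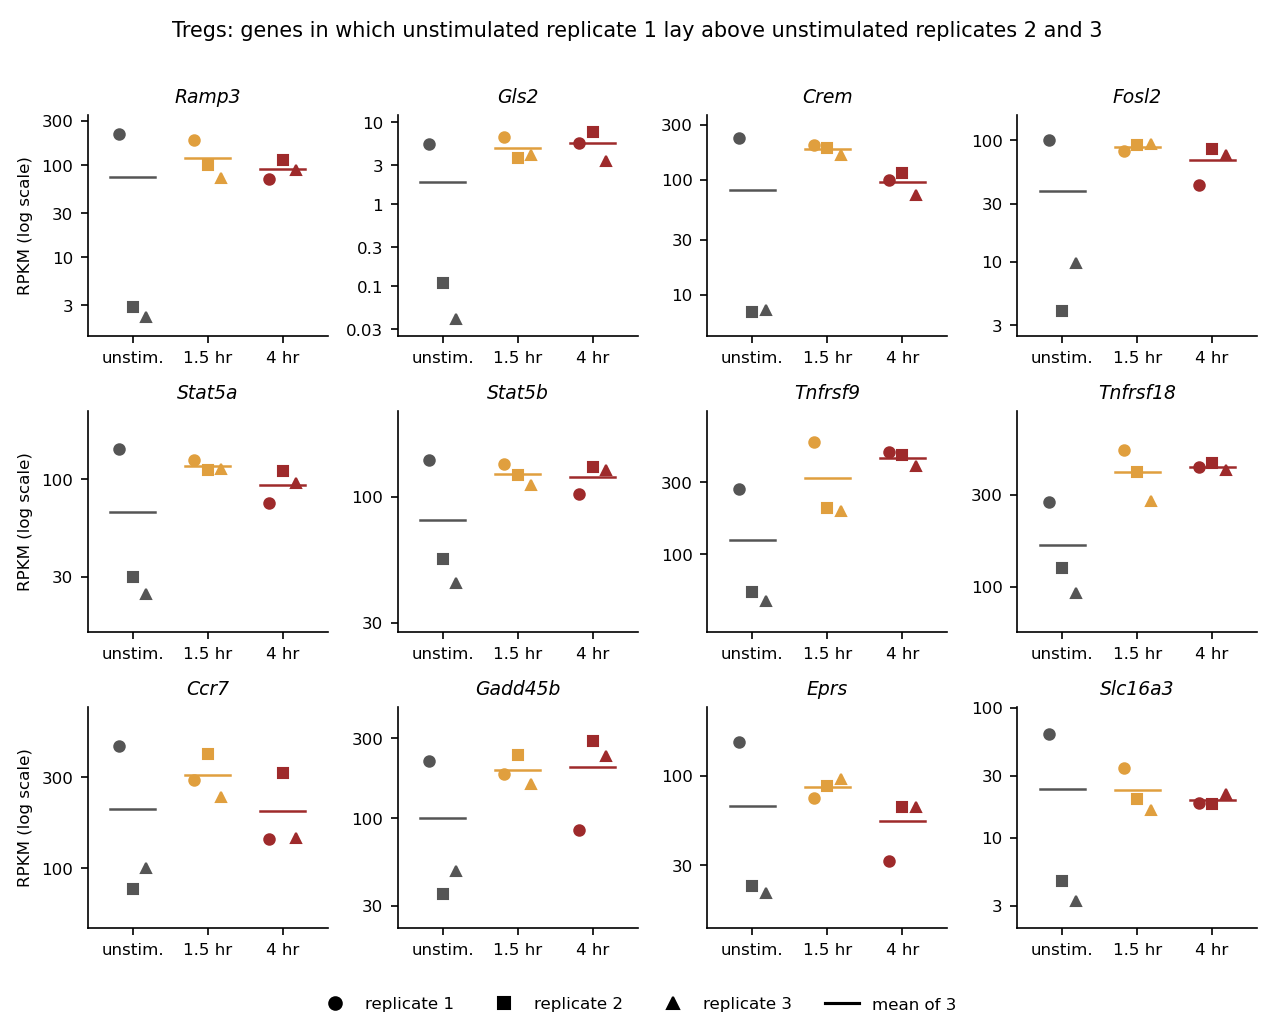
RPKM on a log axis in the unstimulated (grey), IL-2 1.5 hr (orange) and IL-2 4 hr (red) Treg libraries for 12 genes picked after their values were seen, with circles, squares and triangles for replicates 1, 2 and 3 and lines at the group means. In each gene unstimulated replicate 1 lay above unstimulated replicates 2 and 3, as in Ramp3, at 219, 2.91 and 2.25 RPKM in the unstimulated group.

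Of 26 quiescence and lymph node homing genes, 3 were called lower (Dtx1, Tsc22d3 and Il7r) and 1 higher (Bach2), with a median log2 fold change of -0.58. With the block there were 7 lower and 1 higher, and without unstimulated replicate 1 there were 6 and 1. No gene of the list was called without unstimulated replicate 3 or IL-2 4 hr replicate 3, 1 was called without IL-2 4 hr replicate 1 or 2, and 2 without unstimulated replicate 2. Tsc22d3 (GILZ), a glucocorticoid-induced inhibitor of inflammation, fell from 141, 143 and 175 to 66.1, 87.5 and 72.3 RPKM (log2 fold change -0.97, adjusted p = 0.0358, edgeR). Bach2, a repressor that restrains effector differentiation, rose from 9.68, 16.3 and 11.9 to 18.2, 30.2 and 25.6 RPKM (log2 fold change 1.05, adjusted p = 0.0319, edgeR), a call that held in 2 of the 6 fits that left out a library. In both genes the groups were apart. Ccr7, a chemokine receptor that guides T cells into lymph nodes, was at 439, 77.8 and 101 RPKM before and 143, 316 and 144 after IL-2, with unstimulated replicate 1 the highest of all.

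Notch pathway genes moved in both directions. Notch2 rose from 10.4, 14.6 and 13.2 to 17.8, 41.7 and 42.1 RPKM (log2 fold change 1.49, adjusted p = 0.024, edgeR), and Numb, an inhibitor of Notch, from 7.84 ± 0.681 to 10.8 ± 1.72 (SD, n = 3, log2 fold change 0.53, adjusted p = 0.047, edgeR). Notch3 rose from 0.0142, 0.0673 and 0.0352 to 0.195, 0.453 and 0.221 RPKM, where it rested on 7 to 319 reads a library (log2 fold change 2.98, adjusted p = 0.0365). Dtx1, a ubiquitin ligase tied to Notch and to T cell anergy, was at 3.24, 62.7 and 42.4 RPKM before and 1.03, 1.29 and 1.51 after IL-2 (log2 fold change -4.66, adjusted p = 0.0263, edgeR). Unstimulated replicate 1 stood near the stimulated level, and without it the log2 fold change was -5.20. Hey1, a classical target of Notch that is not on the list, fell from 8.73, 1.75 and 6.71 to 0.557, 0.649 and 0.988 RPKM (log2 fold change -2.97, adjusted p = 0.0102, edgeR). Of 25 Notch and TGF-beta genes, 3 were called higher (Notch2, Notch3 and Numb) and 1 lower (Dtx1), with a median log2 fold change of 0.03. With the block these counts were 3 and 2, without unstimulated replicate 1 they were 4 and 2, and without unstimulated replicate 2 or 3 or IL-2 4 hr replicate 2 or 3 no gene of the list was called.

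A few genes of tRNA charging and of the response to amino acid shortage rose. Of 30 tRNA synthetase and amino acid response genes, 5 were called higher (Trib3, Aldh18a1, Aars, Cars and Mars) and 0 lower, with a median log2 fold change of 0.34 and 8 negative values, and the counts were 6 and 0 with the block and without unstimulated replicate 1. Aldh18a1, which makes the precursor of proline and ornithine, went from 12.9, 21.1 and 16.8 to 72.3, 77.4 and 59.7 RPKM (log2 fold change 2.13 ± 0.20, adjusted p = 0.000148, edgeR). Trib3, a pseudokinase induced when amino acids run short, went from 1.41, 1.29 and 1.24 to 14.99, 10.9 and 11.8 RPKM (log2 fold change 3.33 ± 0.47, adjusted p = 0.0028, edgeR). In both, the stimulated libraries lay far above the others, and the call held in every fit that left out a library. Without unstimulated replicate 2 or 3 or IL-2 4 hr replicate 3, 2 genes of the list were called. Aars, Cars and Mars, which charge tRNAs with alanine, cysteine and methionine, rose by 1.13, 1.25 and 0.66 on the log2 scale. Exosc6 overlaps Aars on the same strand and Ddit3 overlaps Mars on the opposite one, so their reads are uncertain in part. Rragd, a GTPase that passes amino acid signals to mTORC1, rose from 4.47 ± 0.747 to 15.8 ± 3.40 RPKM (SD, n = 3, log2 fold change 1.89, adjusted p = 0.000248, edgeR). Eif5a, a translation factor, rose from 186 ± 26.8 to 313 ± 52.7 RPKM (adjusted p = 0.0451, edgeR). Eprs, a further synthetase, was at 157.6, 22.6 and 20.6 RPKM before and 31.7, 65.2 and 65.3 after IL-2, a difference with log2 fold change -0.35 that became 1.47 without unstimulated replicate 1 (adjusted p = 0.819 and 0.036, edgeR).

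Lipid, redox, protein folding and glycolysis genes gave 1 or 2 calls a list, too few to set against the background of 2.27% over all tested genes. Elovl6, a fatty acid elongase, rose from 6.06, 4.30 and 3.08 to 24.6, 26.1 and 11.5 RPKM and Fdps, of the sterol pathway, from 11.5, 12.7 and 11.2 to 17.6, 23.5 and 22.4 (log2 fold changes 2.23 and 0.91, adjusted p = 0.00218 and 0.00825, edgeR). They were the 2 called of 26 tested cholesterol and fatty acid synthesis genes. Txnrd1, thioredoxin reductase, was the 1 called of 20 redox genes, at 12.5, 16.3 and 14.0 RPKM before and 27.8, 28.6 and 28.8 after IL-2 (log2 fold change 1.07, adjusted p = 0.0025, edgeR). Pdia4, a disulfide isomerase of the endoplasmic reticulum, was the 1 called of 24 chaperone genes, at 17.8, 34.7 and 38.4 and 138, 119 and 130.4 RPKM (log2 fold change 2.20, adjusted p = 0.0013, edgeR). In that list Hspa1a, an inducible heat shock protein, was at 1.88, 18.4 and 400.2 RPKM in the unstimulated group, so that 1 library held nearly all of it. Slc2a3, a glucose transporter, fell from 10.7, 27.7 and 25.9 to 7.69, 9.86 and 6.47 RPKM and was the 1 called of 23 glycolysis genes. With the block the counts were 2 higher and 0 lower in the lipid list, 2 and 1 in the redox list, 1 and 2 in the chaperone list and 1 and 2 in the glycolysis list. Without unstimulated replicate 1 they were 3 and 2, 2 and 1, 1 and 4, and 1 and 2.

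Cd3g, of the T cell receptor complex, and the surface receptor genes Cd4 and Cd5 were among those that fell. Of 10 tested T cell and Treg markers, 3 were called lower (Cd3g, Cd4 and Cd5) beside Foxp3 and Il2ra, which were called higher. With the block, and also without unstimulated replicate 1, the counts were 4 lower and 2 higher. Cd4 fell from 129, 168 and 148 to 79.4, 77.7 and 56.4 RPKM (log2 fold change -0.99, adjusted p = 0.00875, edgeR), Cd5, an inhibitor of receptor signalling, from 183, 194 and 161.9 to 78.2, 106 and 62.9 (-1.07, adjusted p = 0.00835) and Cd3g, a signalling chain, from 201, 270.2 and 296 to 146, 113 and 78.2 (-1.11, adjusted p = 0.0357). Each of the 3 was lower in every stimulated library than in any unstimulated one. Sit1, an adaptor that damps receptor signalling, and Tespa1, which takes part in it, fell by log2 fold changes of -1.93 and -2.46 (adjusted p = 0.00265 and 0.0422, edgeR). Among the largest losses of level was Cd52, a surface glycoprotein, from 301, 452 and 399 to 107, 122 and 16.4 RPKM, in which IL-2 4 hr replicate 3 was far below the other 2. Rac2, a GTPase of the cytoskeleton, went from 200.3 ± 82.4 to 72.7 ± 29.4 RPKM (SD, n = 3) and Laptm5, a lysosomal protein that lowers receptor levels, from 358 ± 63.4 to 152 ± 51.8.

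Ezh2, Mov10, Gpsm2 and Gpld1, among those with the smallest p-values, are in none of the lists. Ezh2, the methyltransferase of Polycomb at chr6:47530274-47595270 in mm10, rose from 8.02, 16.7 and 14.9 to 84.3, 95.3 and 48.6 RPKM (log2 fold change 2.60 ± 0.27, adjusted p = 0.000248, edgeR). Mov10, an RNA helicase, rose from 9.60, 16.3 and 11.3 to 38.9, 58.9 and 39.1 RPKM (1.96 ± 0.20, adjusted p = 0.000248), and Gpsm2, which orients the mitotic spindle, from 1.34, 1.95 and 1.42 to 7.72, 10.03 and 7.82 (2.52 ± 0.21, adjusted p = 7.49e-05). Gpld1, a phospholipase that releases GPI-anchored proteins, rose from 0.815, 0.909 and 0.625 to 6.97, 7.33 and 4.90 RPKM (3.09 ± 0.27, adjusted p = 7.49e-05). In all 4 genes the groups did not overlap and the call held in every fit that left out a library. On the other side, Ephx1, an epoxide hydrolase, fell from 69.1, 102 and 104 to 19.5, 18.7 and 13.3 RPKM (-2.33 ± 0.28, adjusted p = 0.000993), and Epsti1 from 19.0, 42.3 and 42.6 to 9.83, 10.4 and 7.37 (-1.82 ± 0.27, adjusted p = 0.00357). Cst7, an inhibitor of cysteine proteases, fell from 15.9, 37.6 and 41.1 to 4.94, 4.46 and 1.04 RPKM (-3.10 ± 0.57, adjusted p = 0.0127).

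Some of the genes that fell are known best from other cell types. Car1, a carbonic anhydrase of erythroid cells, was at 1.76, 5.21 and 15.8 RPKM before and 0.0708, 0.330 and 0.127 after IL-2 (log2 fold change -5.32, adjusted p = 0.0349, edgeR), and was the 1 called of 12 erythroid markers, all of which had negative log2 fold changes. With the block 3 erythroid markers were called lower, and without unstimulated replicate 1 there were 2. Cd72, a B cell receptor partner, was at 4.05, 11.6 and 14.9 and 0.775, 2.15 and 1.61 RPKM (-2.67, adjusted p = 0.0275). None of 15 macrophage, monocyte and dendritic cell markers was called, although 14 of the 15 had negative log2 fold changes, with a median of -1.81. With the block 10 of them were called lower, and without unstimulated replicate 1 there was 1. With all libraries and no block 5 had an unadjusted p under 0.05, and DESeq2 called 3. Of 10 B cell markers, 10 neutrophil and mast cell markers and 10 CD8 T cell and NK cell markers, edgeR called 0, with 1, 0 and 1 at an unadjusted p under 0.05, and DESeq2 called 1, 0 and 0. The block gave 1, 0 and 1 calls, all lower, and leaving out unstimulated replicate 1 gave 1, 0 and 0. Of 8 tested markers of conventional CD4 T cells Cxcr5 alone was called, from 16.4 ± 5.01 to 6.16 ± 2.67 RPKM (SD, n = 3), but all 8 had negative log2 fold changes, with a median of -1.82. With the block 6 of the 8 were called lower, without unstimulated replicate 1 there were 3, DESeq2 called 2, and 5 had an unadjusted p under 0.05. Conventional CD4 T cell markers summed to 40.8 to 94.3 RPKM in the unstimulated and 14.0 to 33.97 in the stimulated libraries. The part of these other cells in the falls was not tested. In bulk libraries, fewer cells of a type and less RNA per cell cannot be told apart.

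Several lists gave no call in edgeR with all libraries. There were 0 called of 30 ribosome biogenesis genes (median log2 fold change 0.114), 0 of 28 DNA replication and mitosis genes (-0.18), 0 of 27 TNF receptor and ligand genes (0.40) and 0 of 17 BCL2 family genes (-0.04). With the block these became 0, 2, 5 and 2 calls, and DESeq2 made the same number in each list. At an unadjusted p under 0.05 there were 5, 6, 10 and 7. Without unstimulated replicate 1 there were 0, 2, 8 and 1, and those of the TNF receptor and ligand list were 7 higher and 1 lower, with a median of 0.546. Of 22 G1 cyclins, CDKs and inhibitors, Cdk6 alone was called, with the block there were 1 higher and 2 lower, and without unstimulated replicate 1 there were 3 and 3. Chemokine genes gave 2 calls of 22, both lower (5 lower with the block and 4 without unstimulated replicate 1), in Cxcr5 and in Cxcl2, a neutrophil attractant that went from 4.56, 2.72 and 6.00 to 0.938, 1.07 and 0.782 RPKM. Interferon-stimulated genes split: Gbp2, an interferon-induced GTPase, rose from 29.96, 35.6 and 36.3 to 61.7, 133 and 61.2 RPKM and Stat2 from 11.3, 17.4 and 13.6 to 18.0, 29.2 and 23.6, while 23 of the 29 had negative log2 fold changes and the list's median was -0.61. With all libraries edgeR called none of these 23, with the block 8 of the list were called lower, and 12 genes of the list were called lower without unstimulated replicate 1, among them Mx1, an antiviral GTPase that was also called with the block (adjusted p = 0.0291), at 0.490, 2.56 and 2.20 and 0.372, 0.448 and 0.217 RPKM, and Ifit3 at 0.765, 5.71 and 5.06 and 0.720, 1.76 and 0.833. In both of these fits 3 genes of the list were called higher, and without unstimulated replicate 2 or 3 or IL-2 4 hr replicate 3 the list gave no call.

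**Figure D4:**
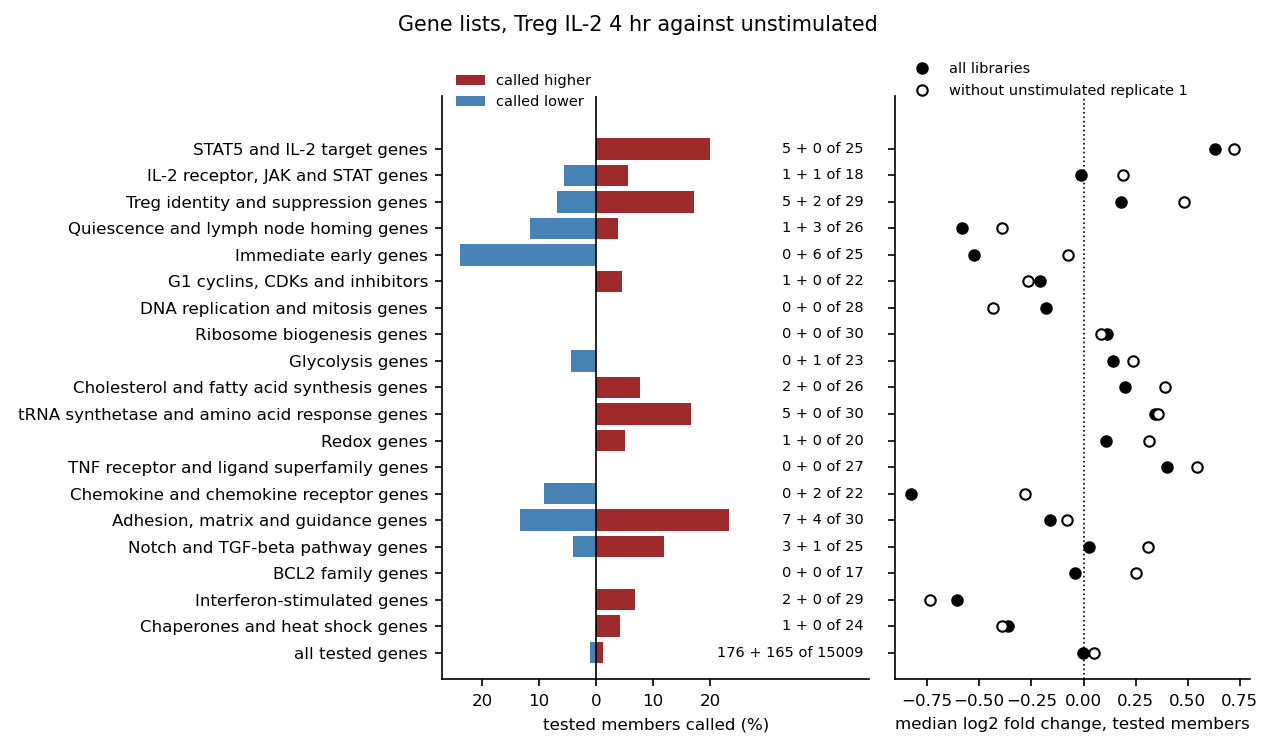
Left, percent of the tested members of each gene list called higher (right of 0) and lower (left of 0) after IL-2, with the counts written as higher + lower of tested. Right, median log2 fold change of each list with all libraries (filled) and without unstimulated replicate 1 (open), where, among the lists drawn, STAT5 and IL-2 targets have the highest median (0.63) and chemokine genes the lowest (-0.83) with all libraries.

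Ramp3, Gls2, Bcl2, Myc, Ifng, Gzmb and Lta, which the study names in Tregs, were listed together. The study names Ramp3 and Gls2 from RNA-seq, as differing between IL-2-treated and unstimulated Tregs. For Bcl2, Myc, Ifng, Gzmb and Lta it reports a rise after IL-2, measured by quantitative PCR (qPCR). With all libraries edgeR called 0 of the 7, with 4 at an unadjusted p under 0.05, and DESeq2 called 2. Ramp3, a receptor activity-modifying protein, and Gls2, a mitochondrial glutaminase, were the 2 called without unstimulated replicate 1. Ramp3 was at 219, 2.91 and 2.25 RPKM before and 70.4, 112 and 88.8 after IL-2, and Gls2 at 5.42, 0.110 and 0.0397 and 5.60, 7.68 and 3.38. Their log2 fold changes were 0.18 and 1.47 (adjusted p = 0.948 and 0.509, edgeR), and 5.28 and 6.32 without that library (adjusted p = 1.80e-05 for both). Myc, the growth regulator, was at 15.2, 35.9 and 27.1 and 32.96, 92.3 and 82.0 RPKM and Gzmb, a cytotoxic protease, at 9.03, 4.24 and 4.39 and 22.1, 22.8 and 6.13. With the block Myc and Gzmb were called higher (adjusted p = 0.00118 and 0.0161, edgeR). Ifng, the cytokine interferon-gamma, was called lower with the block (adjusted p = 0.0269, edgeR). It was at 2.4, 4.46 and 8.83 RPKM before and 0.298, 2.47 and 0.1003 after IL-2. This direction is opposite to the rise of Ifng that the study reports by qPCR, which is a different measure. The cause of the difference was not tested. Lta (lymphotoxin-alpha) was at 3.84, 22.3 and 18.9 and 50.5, 68.9 and 19.9 RPKM and Bcl2, a survival factor, at 11.1, 35.8 and 25.8 and 31.7, 46.0 and 27.4, and neither was called in either fit (adjusted p = 0.0962 and 0.313 without the block).

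Between 1.5 hr and 4 hr of IL-2, edgeR called 0 of 15009 genes, with 2551 at an unadjusted p under 0.05, and DESeq2 called 374. With the replicate block, edgeR called 58 (0.386%), 25 higher and 33 lower at 4 hr. Both comparisons use the same IL-2 4 hr libraries, so their values are given side by side. In the fit with the block, Lama5 was higher at 4 hr than at 1.5 hr by 2.37 on the log2 scale (adjusted p = 0.00572), Gpld1 by 1.38 (adjusted p = 0.00652) and Ecm1 by 1.15 (adjusted p = 0.0398). Fdps was at 11.8, 10.2 and 21.1 RPKM on average in unstimulated, 1.5 hr and 4 hr libraries, and Mars at 10.7, 8.06 and 15.8, and both were called higher at 4 hr than at 1.5 hr with the block (adjusted p = 0.0256 and 0.0284). Sytl2, a vesicle transport protein, had a log2 fold change of -1.96 between the times (adjusted p = 0.0211 with the block), with means of 17.3, 14.9 and 4.12 RPKM, and Ephx1 one of -1.61 (adjusted p = 0.0287). Ezh2, by contrast, was at 70.2 RPKM at 1.5 hr and 76.1 at 4 hr, and its difference between the times was 0.04 on the log2 scale (adjusted p = 0.939 with the block).

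CD8+ T cells had 1 library per group, so their values carry no replicate error and no test was made. The ratio was taken on log2(RPKM + 1), which understates the change of low genes, for the 9977 tested genes with a mean of at least 1 RPKM in CD8+ T cells. Of the 128 genes called higher in Tregs and expressed there, 111 (86.7%) were also higher in CD8+ T cells after 4 hr of IL-2, against 41.3% of all 9977 genes. Of the 114 called lower, 112 (98.2%) were also lower, against 58.7% of all. The median ratio was 0.505 for the genes called higher, -0.962 for those called lower and -0.073 for all. Cish was at 1.87 RPKM in unstimulated and 26.1 in stimulated CD8+ T cells, Socs1 at 9.25 and 42.3, and Ecm1 at 2.57 and 19.7. Fos went from 116 to 1.44 RPKM, Dusp1 from 57.4 to 2.53 and Junb from 289 to 30.8. Lama5, at 0.0686 and 0.178 RPKM, was nearly silent in CD8+ T cells at both times, and Ezh2 was at 7.20 and 8.11.

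**Figure D5:**
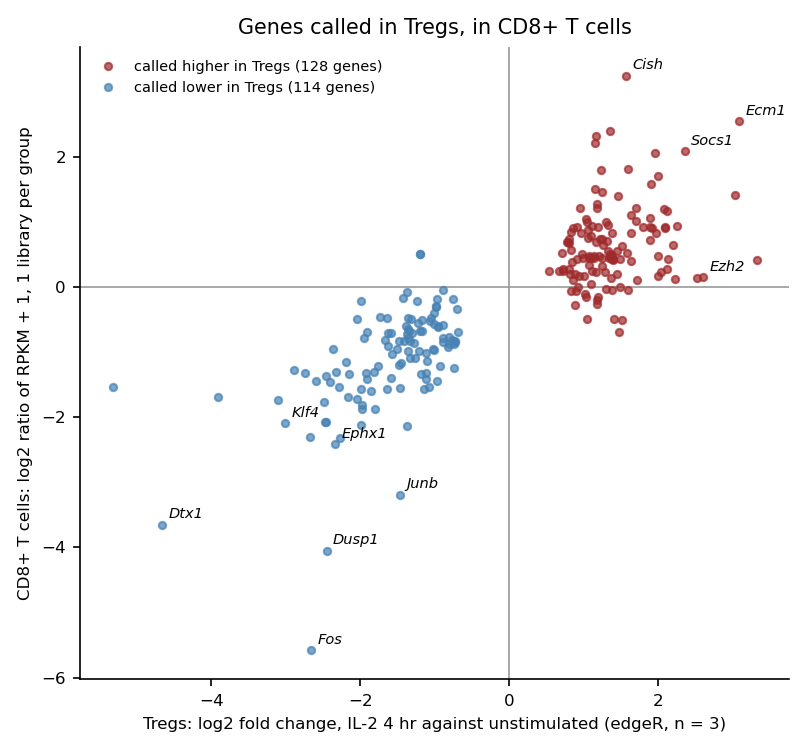
Each point is a gene called in Tregs and expressed in CD8+ T cells, with its log2 fold change in Tregs (edgeR, 3 libraries per group) on the x axis and its log2 ratio of RPKM + 1 in CD8+ T cells (1 library per group, no test) on the y axis. Of 128 genes called higher (red) 111 lie above 0, and of 114 called lower (blue) 112 lie below 0.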

How the data were processed

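RNA of 15 Treg and 5 CD8+ T cell libraries was sequenced as single-end reads. The authors mapped them to mm10 with Bowtie2 2.2.6 and TopHat2 2.1.1 and counted uniquely mapped reads on exons. The deposited files hold a raw read count and an RPKM value (reads per kilobase of exon, scaled to the mapped reads) for each RefSeq transcript. SAMtools 0.1.8 and bedtools 2.25.0 are also named in their processing notes. Whether strand was used in counting is not given in the sources used here.

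From these files, 1 transcript per gene symbol was kept, the one with most reads over all 20 libraries, which left 23992 symbols of 31682 transcripts. Genes were filtered with filterByExpr and tested on the deposited counts with edgeR 4.0.16 (TMM, quasi-likelihood F test, R 4.3.3) over the 15 Treg libraries, with 1 mean per group. A gene was called at a Benjamini-Hochberg adjusted p under 0.05, and adjusted p-values in the text are from this fit unless another is named. The deposited RPKM values were used for levels. Each sample was grouped by its label. The test was tried on simulated counts.

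For numbers 1 and 2, unstimulated and IL-2 4 hr libraries of the same number deviated together from the group means (r = 0.507 and 0.513 across genes). For number 3 the value was 0.108, below the 0.336 of unstimulated replicate 3 with IL-2 4 hr replicate 2. Different numbers gave -0.516 to 0.336. Deviations from a mean of 3 libraries cancel within each group, so these values depend on each other and are a description. Counts of calls are also given from the fit with the number as a block. Alternatives were DESeq2 1.42.0, limma 3.58.1 on log2(RPKM + 1), other normalization, filters and transcripts, the 6 libraries alone, and leaving out libraries. Fits that leave out 1 unstimulated library and keep the block were chosen after the data were seen.

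The genes named were the members of 27 gene lists, the 15 highest and 15 lowest fold changes among called genes that moved the same way in the 3 pairs and reached a mean of 5 RPKM, the 10 largest rises and falls of mean RPKM, the 10 smallest p-values each way, genes the study names, and genes called between 4 hr and 1.5 hr. The text gives a selection of these. The comparison, the lists and the genes were chosen with earlier results of these data known. Promoter sequence is from RefSeq, GRCm38.p6.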

Additional observations from a re-analysis of the deposited data

Results flagged for a closer look

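Of the named genes that were called higher in Tregs and rose in all 3 same-numbered pairs and are given here, 3 were lower in the single stimulated CD8+ T cell library than in the unstimulated one. The difference between the cell types was not tested, since CD8+ T cells had 1 library per group.

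Atp1b1, a regulatory chain of the sodium pump that was chosen after its values were seen, had a log2 fold change of 1.41 in Tregs and a log2 ratio of RPKM + 1 of -0.49 in CD8+ T cells. Myb, a transcription factor of progenitor and memory lymphocytes, had 1.51 and -0.52. In Notch2 the values were 1.49 and -0.004, the latter from 9.33 and 9.30 RPKM.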

How the results depend on the processing

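The count of 341 genes called after 4 hr of IL-2 became 1016 with DESeq2, 1038 with the replicate block and 15 with the 6 libraries alone, 3247 and 579 with the block and without unstimulated replicate 1 or 2, 72 to 1374 without single libraries, and 1937, 3 and 11 without replicate 1, 2 or 3 in every group. It was 340 with DESeq2 size factors, 266 with limma, 340 with the longest transcript, 374 at a mean RPKM of at least 1, 277 with no filter on low counts and 364 with the block and without unstimulated replicate 3. Between 4 hr and 1.5 hr the count of 0 became 374 with DESeq2, 4 with DESeq2 size factors, 3 with limma, 9 at a mean RPKM of at least 1, 3 with no filter, 58 with the replicate block, 625 without replicate 1, 3 without IL-2 1.5 hr replicate 1 and 1 without IL-2 4 hr replicate 1, and 0 without the other libraries one at a time. The share of genes called higher that were higher in CD8+ T cells, 86.7%, became 92.2% after centring on the median and 96.97% for absolute ratios above 0.5. The causes of these shifts were not tested.

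Of the 74 named genes called, 74 held with DESeq2, with its size factors, with the longest transcript, with the block and without unstimulated replicate 1, and 70 with no filter. Calls were lost in 64 with the 6 libraries alone, in 33 and 44 without unstimulated replicate 2 or 3, in 19, 32 and 31 without IL-2 4 hr replicate 1, 2 or 3, in 1, 72 and 66 without replicate 1, 2 or 3 in every group, in 6 and 11 with the block and without unstimulated replicate 2 or 3, and in 10 of the 70 that limma tested. The block gave calls to 6 of the other 23 and ended none. A change of sign was counted only where the gene was called in either of the fits compared. By this rule signs changed in Ccr7, from -0.10 to 1.36 (block, without unstimulated replicate 1), with a range of -0.90 (without replicate 2 in every group) to 1.44 (without replicate 1), and in Eprs, from -0.35 to 1.67 (block, without unstimulated replicate 1). Genes uncalled in both fits could change sign too, as Crem did, from 0.14 to -0.47 without replicate 2 in every group. Leaving out 1 replicate number in every group, Eprs ranged from -1.01 (replicate 3) to 1.73 (replicate 1), and it was 1.47 without unstimulated replicate 1. IL-2 4 hr replicate 3, with 20201392 reads on genes, was the shallowest of the 6 libraries, and genes of low level such as Notch3 and Podxl rest on few reads.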
